A study of Mus musculus with 9 samples.

Results

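The 26S proteasome is the protease that degrades ubiquitin-tagged proteins, and 34 mouse genes that build its constitutive form were followed here in plasmacytoid dendritic cells (pDCs). The genes were taken from a list of symbols, and all 34 were matched to gene identifiers among the 57126 genes of the count table, of which 37369 had at least 1 count. They comprise 7 genes of the 20S alpha ring (Psma1 to Psma7), 7 of the 20S beta ring (Psmb1 to Psmb7), 6 ATPases of the 19S base (Psmc1 to Psmc6), 11 non-ATPase subunits of the 19S particle (Psmd1 to Psmd4, Psmd6 to Psmd8 and Psmd11 to Psmd14) and 3 chaperones of 19S base assembly (Psmd5, Psmd9 and Psmd10). The last 3 are listed with the subunits but leave the particle before it is mature.

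The libraries were bulk RNA sequencing of polyadenylated RNA from mouse pDCs isolated by flow cytometry. The cells of 1 group had received the vehicle, phosphate-buffered saline (PBS), those of another mitochondrial DNA (mtDNA), and those of the last its oxidised form (Ox-mtDNA). Each of the 3 groups has 3 libraries. Strain, sex, age, dose and duration are not given in the sources used here, nor whether replicates came from separate animals or cultures, so p-values measure only the spread between these samples. Values are CPM, read counts relative to the size of the library after TMM scaling, and fold changes are on the log2 scale of the edgeR quasi-likelihood model with their standard errors (SE).

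The 20S core is a barrel of stacked rings. The alpha rings form its gate and the beta rings hold the proteolytic sites, which in the constitutive form are carried by Psmb6 (caspase-like), Psmb7 (trypsin-like) and Psmb5 (chymotrypsin-like). The 19S particle binds ubiquitin chains, removes them with the deubiquitinase Psmd14, and unfolds the substrate with its ATPases. In immune cells the catalytic subunits can be replaced by the immunoproteasome subunits Psmb9, Psmb10 and Psmb8, which shape the peptides shown on MHC class I, and transcription of the constitutive genes is known to be raised by Nfe2l1 and Nfe2l2 through antioxidant response elements.

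Because that element is the sequence through which proteasome genes are known to be controlled together, promoters were searched for it. Promoters reached from 250 bases before to 50 bases after the gene start (RefSeq, GRCm38.p6), and 28 of the 34 genes had one in the table. The antioxidant response element was searched as TGACNNNGC on both strands, so that it also appears as GCNNNGTCA. It was present for 5 of the 28 genes (17.9%) and for 3781 of all 27025 genes with a promoter (14%), so the share among the proteasome genes was close to that of promoters at large. The matches are printed on the strand of the gene with the motif in capitals, and each is a match of letters, not a shown binding site. In Psmb5 (minus strand, chr14:54618004-54618072) the motif began 47 bases before the start, in Psmb6 (plus strand, chr11:70525318-70525356) 9 bases before it, and in Psmd9 (plus strand, chr5:123228129-123228189) 31 bases before it.
Psmb5: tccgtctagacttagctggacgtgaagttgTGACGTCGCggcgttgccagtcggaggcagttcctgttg
Psmb6: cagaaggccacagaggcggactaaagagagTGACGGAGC
Psmd9: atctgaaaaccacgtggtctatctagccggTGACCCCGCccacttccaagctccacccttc
In these 3 genes the forward form lay within 47 bases of the start. Psmc6 (plus strand, chr14:45329574-45329635) and Psmd12 (plus strand, chr11:107479278-107479319) carried the reverse form farther out, beginning 227 and 247 bases before the start.
Psmc6: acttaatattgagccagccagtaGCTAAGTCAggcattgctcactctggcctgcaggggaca
Psmd12: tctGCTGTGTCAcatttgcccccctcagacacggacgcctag
The heat shock element, searched on both strands as GAA, TTC and GAA in a row with 2 bases of any kind between the blocks, was in 0 of the 28 proteasome promoters and in 179 of the 27025 (0.662%). It was in 3 of the 11 promoters found for a list of proteotoxic stress genes described below, those of Hspd1, Hspe1 and Hsph1. Hspd1 (minus strand, starting at GRCm39 chr1:55127183) and Hspe1 (plus strand, starting at chr1:55127291) are neighbours. Their promoters can therefore overlap, and 1 stretch may be counted for both. The antioxidant response element was in 3 of the same 11, those of Dnajb1, Hsph1 and Zfand5.

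Total counts were 16029951 to 25378884 per library. All 13 pDC markers were detected and their summed level was 4917 to 12854 CPM, against 354 to 826 CPM for 7 markers of conventional dendritic cells, 451 to 1772 CPM for 6 monocyte and macrophage markers and 134 to 660 CPM for 7 B cell markers. Summed T cell markers were at 27.9 to 63.3 CPM, neutrophil markers at 1.70 to 9.95 CPM, NK cell markers at 0.854 to 2.97 CPM and erythroid markers at 0.163 to 0.641 CPM. Among the monocyte and macrophage markers Ccr2 was at 168 to 1486 CPM, Csf1r at 104 to 273 CPM and Lyz2 at 22.3 to 154 CPM. Cd14, Adgre1 and Fcgr1 were at no more than 12.5, 20.7 and 2.26 CPM. No marker in these lists was at 0 in all libraries. In all 3 groups replicate 3 stood apart from replicates 1 and 2, along a first principal component that held 70.7% of the variance. Ox-mtDNA replicate 2 had the lowest sum of pDC markers (4917 CPM, the other 8 libraries 7201 to 12854) and the highest sum of B cell markers (660 CPM, the others 134 to 415). In bulk RNA, fewer cells of a type and less RNA per cell cannot be told apart.

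The proteasome genes were among the more abundant transcripts of these cells. In PBS-treated pDCs their level per kilobase of counted exon, the measure that can be compared between genes, ran from 9.95 ± 2.11 CPM per kb (SD, n = 3) for Psmd9 to 158 ± 40.5 for Psmb4, a 15.9-fold range. All 34 were above the median of the 17555 tested genes (6.40 CPM per kb), and 93.5% of the tested genes were below the median proteasome gene (64.2 CPM per kb). The length used is the union of a gene's annotated exons, so a gene with long alternative exons has a lower value per kb than its main transcript would.

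Levels differed by position in the complex. The core came highest, with medians of 101 CPM per kb for the alpha ring and 101 for the beta ring, followed by 71.5 for the ATPases and 57.2 for the non-ATPase subunits. The 3 assembly chaperones, which act on the particle without staying in it, had a median of 19.3 CPM per kb and held the 3 lowest places. Within the core the highest were the beta-ring genes Psmb4 and Psmb3 (142 ± 40.2) and the alpha-ring gene Psma1 (127 ± 36.6), whose SDs overlapped. The lowest core genes were Psma2 (41.4 ± 12.2), Psma3 (43.0 ± 9.05) and Psmb1 (59.8 ± 19.8), with counted lengths of 2911, 2846 and 3427 bases, the longest of the core. Among 19S genes Psmd2, a large scaffold subunit, was highest (91.4 ± 17.8 CPM per kb) and Psmd12 (26 ± 5.66) lowest apart from the chaperones. Most neighbours in this order differed by less than their SD.

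**Figure D1:**
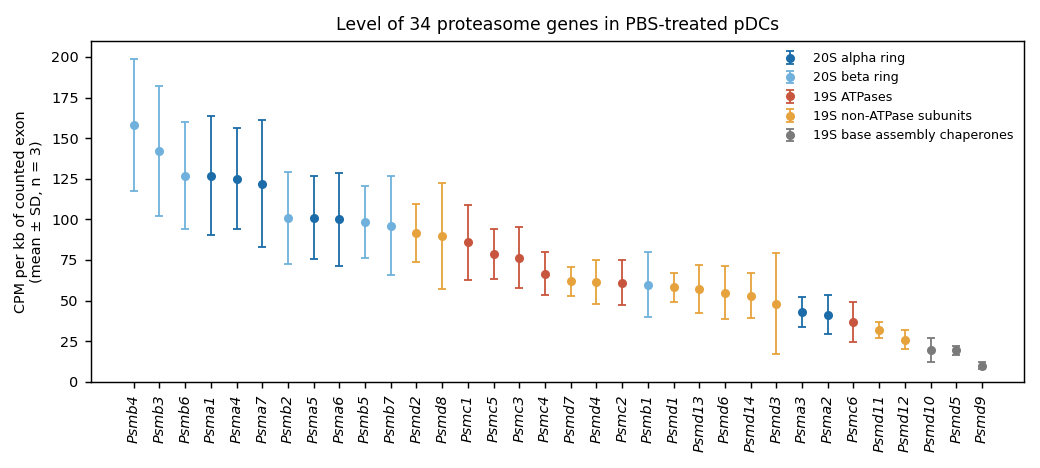
Mean level in PBS-treated pDCs (y axis, CPM per kb of counted exon, linear) of each of the 34 proteasome genes (x axis, ordered by level), coloured by position in the complex; bars are the SD over 3 libraries. The beta-ring gene Psmb4 is highest at 158 and the 3 grey assembly chaperones are the lowest, down to 9.95 for Psmd9.

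The summed level of the 34 genes was 3615, 3439 and 5062 CPM in PBS replicates 1, 2 and 3, 3247, 3353 and 4260 CPM after mtDNA, and 3299, 4728 and 4535 CPM after Ox-mtDNA. PBS replicate 3 was the highest library and mtDNA replicate 1 the lowest, and the 3 groups overlapped. Of the single genes, 17 had their highest level in PBS replicate 3, 10 in Ox-mtDNA replicate 2, 6 in Ox-mtDNA replicate 3 and 1 in mtDNA replicate 3. The lowest level was in mtDNA replicate 1 for 13 genes, in Ox-mtDNA replicate 1 for 9 and in mtDNA replicate 2 for 7.

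The proteasome genes differed between replicates of one treatment. Relative to the mean of replicates 1 and 2, replicate 3 was higher by a median of 0.59 (log2) for the proteasome genes in PBS (32 of 34 higher), 0.38 in mtDNA (27 of 34) and 0.24 in Ox-mtDNA (26 of 34), where the medians of all tested genes were 0.09, -0.11 and -0.02. The 19S lid subunits Psmd3 and Psmd11 went the other way in all 3 groups. For Psmd11 replicate 3 differed by -0.38 in PBS, -0.32 in mtDNA and -0.26 in Ox-mtDNA. Psmd3 had 142, 141 and 26.3 CPM in the PBS libraries, 127, 128 and 47.0 CPM in the mtDNA libraries, and 114, 143 and 61.0 CPM in the Ox-mtDNA libraries. Replicate 3 of Psmd3 was thus lowest in each group, by 2.42, 1.43 and 1.06 on the log2 scale. Psmd11 has 39.9% GC in its longest transcript and Psmd3 55.4%, and over all tested genes with at least 55% GC the median difference of PBS replicate 3 was -2.05. The other 3 proteasome genes of that GC class (Psma7, Psmb5 and Psmc3) were higher in PBS replicate 3, and the median of all 4 was 0.54. GC content ran from 37.0% (Psmc6) to 57.4% (Psma7) with a median of 49.4%, against 49.6% for all tested genes, and its part in the results was not tested.

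**Figure D2:**
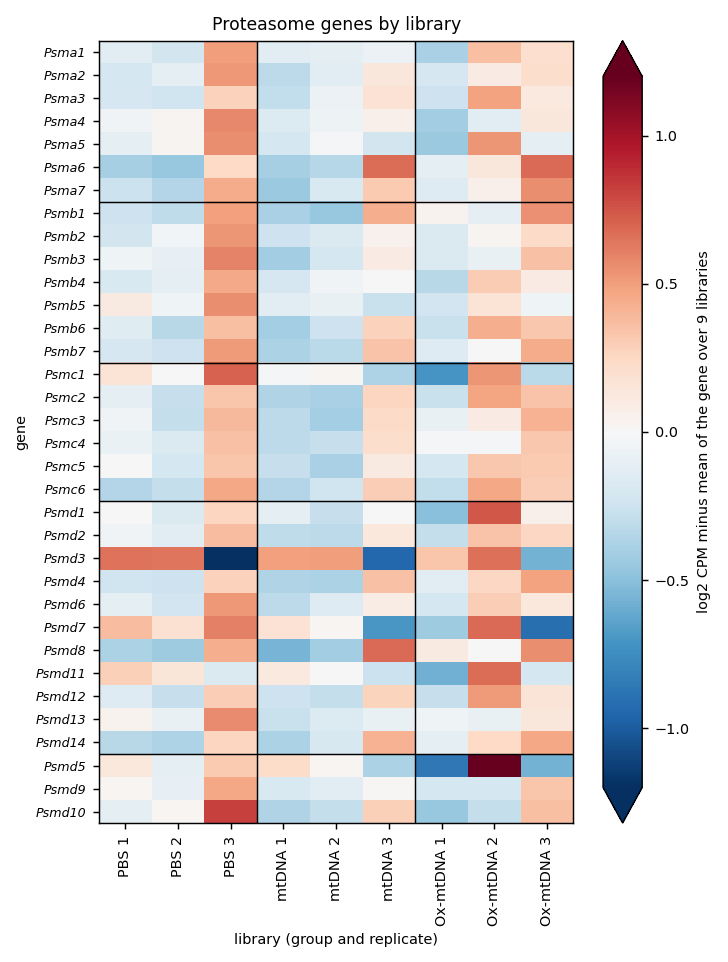
Level of each proteasome gene (rows, grouped by position in the complex from the alpha ring at the top to the assembly chaperones at the bottom) in the 9 libraries (columns, groups divided by vertical lines), as log2 CPM minus the mean of that gene over the 9 libraries; red is higher and blue lower, and the ends of the colour scale hold values beyond it. PBS replicate 3 is above the other PBS libraries for 32 of 34 genes, Psmd3 is blue in every replicate 3, and Psmd5 reaches the end of the scale in Ox-mtDNA replicate 2.

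Ox-mtDNA was compared with PBS to ask whether oxidised mitochondrial DNA changed expression relative to the vehicle. The constitutive proteasome genes showed no called difference: 0 of 34 passed the edgeR quasi-likelihood test at a Benjamini-Hochberg adjusted p under 0.05, the smallest adjusted p being 0.822 (Psma4), and 0 of 34 had an unadjusted p under 0.05. Of all 17555 tested genes 0.0% passed the adjusted threshold, and 5.88% were higher and 3.93% lower at an unadjusted p under 0.05. Of the 13 pDC markers 11 had negative values in this comparison, with a median of -0.68. Of the 13, 5 (Tcf4, Ccr9, Ly6d, Klk1 and Tlr7) were lower without overlap (8.08% of all tested genes), though edgeR called 0. The sum of the 13 was 4917 to 11185 CPM after Ox-mtDNA and 8878 to 12854 CPM in PBS. Its part in the values that follow was not tested. The Wald test of DESeq2, which called 328 genes here, also called 0 of the 34 and gave none an unadjusted p under 0.05.

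The fold changes were small and of mixed sign. The median over the 34 genes was 0.05 (all tested genes 0.06), with 20 positive and 14 negative, where 53.8% of all tested genes were positive. They lay between -0.46 (Psmd7) and 0.43 (Psma6), and 45.7% of the tested genes had a larger absolute value than any proteasome gene. The outermost values moved when single libraries were left out. Without Ox-mtDNA replicate 2 Psmd7 was at -1.05 and Psmc1 at -0.84, more negative than with it. Over all such fits Psmd7 stayed negative (-1.05 to -0.23), as did Psmc1 (-0.84 to -0.17). Psma6 was at 0.68 without PBS replicate 3 and 0.11 without Ox-mtDNA replicate 3. By position the medians were 0.00 for the alpha ring, -0.04 for the beta ring, 0.10 for the ATPases, 0.05 for the non-ATPase subunits and -0.16 for the chaperones. SEs were 0.248 to 0.666 in this model, which held no term for the replicate number, so the precision is limited. The 95% interval lay within a log2 change of 1 in either direction for 26 of the 34 genes. It was widest for Psmd3 (-1.49 to 1.57). The sign of the median was not stable, being -0.06 without PBS replicate 2, -0.09 without Ox-mtDNA replicate 2 and -0.11 without Ox-mtDNA replicate 3.

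**Figure D3:**
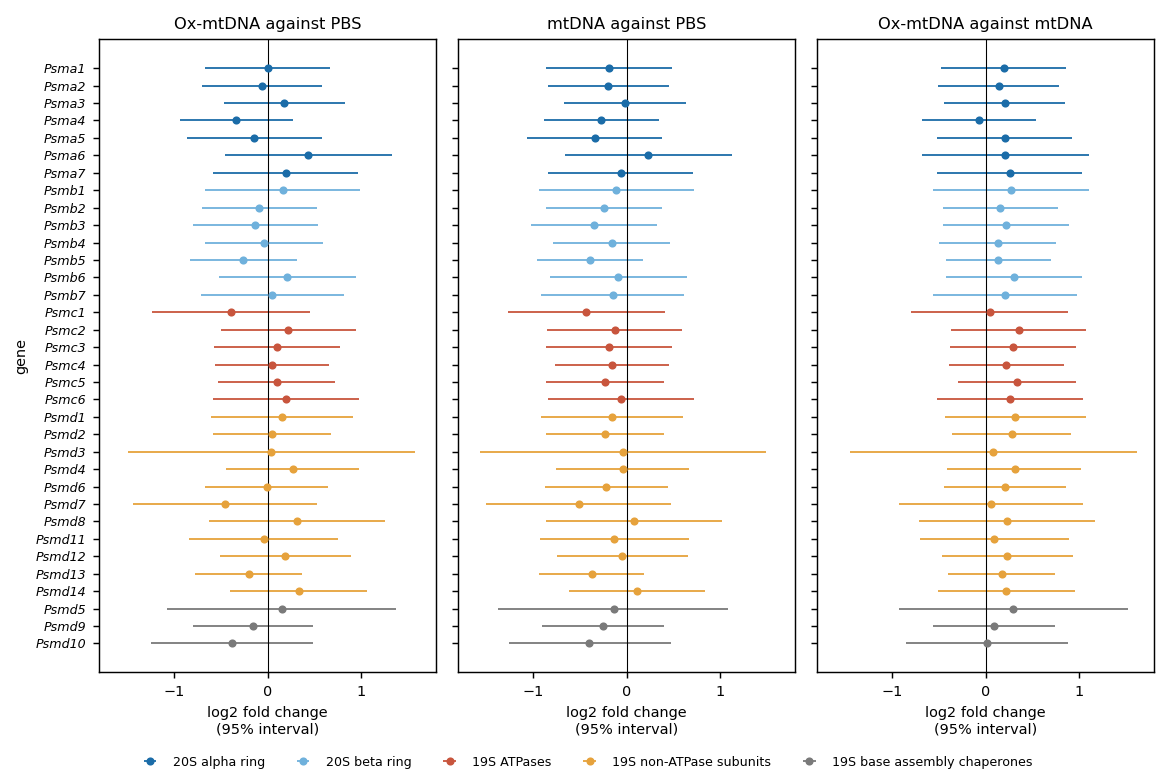
Log2 fold change (x axis, points) with its 95% interval (lines) of each proteasome gene (y axis) from the edgeR model over 9 libraries, in the 3 comparisons, coloured by position in the complex. Points lie between -0.46 and 0.43 in Ox-mtDNA against PBS, 31 of 34 are below 0 in mtDNA against PBS, 33 of 34 are above 0 in Ox-mtDNA against mtDNA, and every interval crosses 0.

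The catalytic subunits of the beta ring showed this spread. Psmb5 (ENSMUSG00000022193, GRCm39 chr14:54851576-54855479), the chymotrypsin-like subunit, had 81.1, 72.8 and 111 CPM in the PBS libraries, 68.4, 70.7 and 62.5 CPM in the mtDNA libraries, and 64.3, 84.1 and 72.6 CPM in the Ox-mtDNA libraries. All 3 mtDNA libraries were below all PBS libraries, while the Ox-mtDNA libraries overlapped with both groups. Its log2 fold change was -0.26 (SE 0.248) in Ox-mtDNA and -0.39 (SE 0.248) in mtDNA, each against PBS, with edgeR quasi-likelihood adjusted p of 0.881 and 1.0.

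Psmb6 (ENSMUSG00000018286, GRCm39 chr11:70416212-70418475), the caspase-like subunit, had 91.8, 80.7 and 131 CPM in the PBS libraries, 76.7, 85.7 and 123 CPM in the mtDNA libraries, and 84.5, 138 and 127 CPM in the Ox-mtDNA libraries. Replicate 3 was high in every group and Ox-mtDNA replicate 2 was the highest library. The log2 fold change was 0.21 (SE 0.319) in Ox-mtDNA and -0.09 (SE 0.319) in mtDNA. Psmb7 (ENSMUSG00000026750, GRCm39 chr2:38478048-38534099), the trypsin-like subunit, had 92.7, 89.4 and 152 CPM in the PBS libraries, 81.7, 85.0 and 135 CPM in the mtDNA libraries, and 95.9, 107 and 145 CPM in the Ox-mtDNA libraries. Here replicate 3 was the highest library of each group and the groups overlapped, with log2 fold changes of 0.05 (SE 0.333) and -0.15 (SE 0.333).

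Some of these counts can include reads of other genes, because counting did not use strand and a fragment over several genes was counted for each. Exons of Psmb7 overlap those of Nek6 on the opposite strand over 405 of 1160 bases, and Nek6 had 41690 counts over the 9 libraries against 19536 for Psmb7. Psmb5 contains the microRNA gene Mir686 over 109 of 899 bases, and 8612 counts assigned to Mir686 lie within the 13739 of Psmb5. Psmd1 shares 301 of 3112 bases with Gm21972 on the same strand, and Psma4, Psma5, Psmc3, Psmd3 and Psmd13 overlap an opposite-strand gene over 17 to 152 bases. The annotated pseudogenes of Psmb5, Psmb6 and Psmb7 had 7 to 54 counts each, with fragments that align to several places left out.

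The genes with the highest and lowest fold changes came from the alpha ring and the 19S particle. Psma6 (ENSMUSG00000021024, GRCm39 chr12:55431007-55465239), an alpha-ring subunit, had 98.4, 94.2 and 153 CPM in the PBS libraries, 97.9, 102 and 206 CPM in the mtDNA libraries, and 119, 142 and 207 CPM in the Ox-mtDNA libraries. It was higher after Ox-mtDNA than after PBS in 3 of 3 replicate numbers, yet the groups overlapped through PBS replicate 3. The log2 fold change was 0.43 (SE 0.389) in Ox-mtDNA and 0.23 (SE 0.389) in mtDNA, with edgeR quasi-likelihood adjusted p of 0.865 and 1.0.

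Psmd14 (ENSMUSG00000026914, GRCm39 chr2:61542038-61630720), the deubiquitinase of the 19S lid, had 70.1, 68.4 and 106 CPM in the PBS libraries, 68.1, 77.4 and 118 CPM in the mtDNA libraries, and 82.0, 104 and 122 CPM in the Ox-mtDNA libraries. It too was higher after Ox-mtDNA in 3 of 3 replicate numbers with overlapping groups, and its log2 fold changes were 0.33 (SE 0.318) and 0.11 (SE 0.318).

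Psmd7 (ENSMUSG00000039067, GRCm39 chr8:108307013-108315096), the partner of Psmd14 in the lid, had 96.0, 84.5 and 113 CPM in the PBS libraries, 83.8, 75.8 and 46.0 CPM in the mtDNA libraries, and 55.5, 119 and 39.9 CPM in the Ox-mtDNA libraries. All mtDNA libraries were below all PBS libraries, while Ox-mtDNA held both the highest library and the lowest. The log2 fold change was -0.46 (SE 0.431) in Ox-mtDNA and -0.51 (SE 0.431) in mtDNA, with edgeR quasi-likelihood adjusted p of 0.879 and 1.0.

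Psmc1 (ENSMUSG00000021178, GRCm39 chr12:100076413-100089664), an ATPase involved in opening the gate of the core, had 122, 109 and 178 CPM in the PBS libraries, 108, 111 and 84.5 CPM in the mtDNA libraries, and 67.0, 158 and 87.1 CPM in the Ox-mtDNA libraries. Replicates 1 and 3 of Ox-mtDNA were below all PBS libraries and replicate 2 was within their range, and the log2 fold changes were -0.39 (SE 0.366) and -0.43 (SE 0.366). So the ATPase Psmc1 and the lid subunit Psmd7 had negative values against PBS while Psma6 and Psmd14 had positive ones, with none past the threshold.

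The replicate numbers diverged when each Ox-mtDNA library was set against the PBS library of its number. The median over the 34 genes was -0.12, 0.48 and -0.15 in replicates 1, 2 and 3, and 11, 30 and 9 genes were positive. In replicate 2 the ATPases (0.53), the alpha ring (0.50) and the non-ATPase subunits (0.49) had medians above the beta ring (0.21) and the chaperones (-0.11). The 4 genes that were not positive there were Psma4, Psmd9, Psmd10 and Psmd13. Over the 3 numbers 6 genes were higher each time (Psma6, Psma7, Psmb1, Psmd4, Psmd8 and Psmd14; 20% of all tested genes) and 4 were lower each time (Psma4, Psmd9, Psmd10 and Psmd13; 17.6%). No proteasome gene had groups that did not overlap, where 7.39% of tested genes did so with Ox-mtDNA higher and 8.08% with Ox-mtDNA lower.

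The assembly chaperone Psmd5 had the widest swing apart from Psmd3. It had 85.2, 72.1 and 97.0 CPM in the PBS libraries, 90.8, 79.4 and 60.1 CPM in the mtDNA libraries, and 43.0, 186 and 52.7 CPM in the Ox-mtDNA libraries. Ox-mtDNA replicate 2 was the highest of all 9 libraries and Ox-mtDNA replicate 1 the lowest, with differences from the PBS library of the same number of -0.98, 1.37 and -0.88, so the fitted log2 fold change of 0.15 (SE 0.534) stands for no single library. Psmd5 was chosen for this account after its values were seen, as were Psmd3 and Psmd11. Ox-mtDNA replicate 2 is also the library with the lowest pDC marker sum and the highest B cell marker sum, and their part in these values was not tested. Without it the median over the 34 genes was -0.09, with 12 positive and 0 called. In that fit 3 of the 34 (Psmc1, Psmd5 and Psmd7) were lower at an unadjusted p under 0.05 and 0 higher, where 5.45% of its 18456 tested genes were lower and 6.27% higher.

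mtDNA was compared with PBS to ask what the unoxidised DNA did. Values leaned lower, with 31 of 34 log2 fold changes negative and a median of -0.16 (all tested genes 0.02, with 52.0% positive). No gene passed: 0 of 34 were called by the edgeR quasi-likelihood test (0.0% of all tested genes), 0 of 34 had an unadjusted p under 0.05 (2.02% of tested genes higher and 0.598% lower), and every adjusted p was 1.0. DESeq2 called 0 of the 34 and 10 of all genes. The 3 positive genes were Psma6 (0.23), Psmd14 (0.11) and Psmd8 (0.08), and the most negative were Psmd7 (-0.51), Psmc1 (-0.43), Psmd10 (-0.40), Psmb5 (-0.39) and Psmd13 (-0.37). All 7 beta-ring genes and all 6 ATPases were negative, with medians of -0.16 and -0.17. B cell markers were lower as well, with 7 of 7 negative and a median of -0.82. Of the 7, 3 (Cd79a, Cd79b and Ms4a1) were lower without overlap (4.96% of all tested genes), though edgeR called 0. The sum of the 7 was 188 to 223 CPM after mtDNA and 278 to 415 CPM in PBS. Of the 13 pDC markers 11 were negative and 2 positive, with a median of -0.12, and Ly6d was lower without overlap. Of the 6 monocyte and macrophage markers 5 were negative and 1 positive, with a median of -0.42. T cell markers were positive for 4 and negative for 2. The part of these markers in the values of the proteasome genes was not tested.

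By replicate number the medians were -0.17, -0.07 and -0.23, and 20 genes were lower each time (19.4% of all tested genes) and 0 higher each time (20.8%). The groups did not overlap for 2 genes, Psmd7 and Psmb5, both lower (4.96% of all tested genes), and 0 were higher without overlap (5.58%). PBS replicate 3 was the library in which 17 of the proteasome genes were highest, and without it the fitted median was 0.01 with 19 of 34 positive. That fit had no term for the replicate number and kept mtDNA replicate 3 without the PBS library of its number. In replicate numbers 1 and 2, which do not use PBS replicate 3, 1 and 12 of the 34 genes were positive. Intervals lay within a log2 change of 1 for 25 of the 34 genes.

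Ox-mtDNA was compared with mtDNA to ask what oxidation of the DNA added. Of the 34 genes 33 had a positive log2 fold change, with a median of 0.21 (all tested genes 0.04, with 54.2% positive), and Psma4 alone was negative (-0.07). Again 0 of 34 were called by the edgeR quasi-likelihood test (0.0% of all tested genes) and by DESeq2, and 0 had an unadjusted p under 0.05 in either (edgeR, 0.923% of tested genes higher and 1.48% lower). The highest were the ATPases Psmc2 (0.35, SE 0.315) and Psmc5 (0.33, SE 0.273). Psmc2 had 84.9, 83.3 and 130 CPM after mtDNA and 90.7, 151 and 138 CPM after Ox-mtDNA, so that Ox-mtDNA replicate 1 lay between the mtDNA libraries. All 7 B cell markers were positive here, with a median of 0.80. Their sums were 134 to 660 CPM after Ox-mtDNA and 188 to 223 CPM after mtDNA. Of the 13 pDC markers 9 were negative and 3 positive, with a median of -0.25. Of the 13, 3 (Tcf4, Klk1 and Tlr7) were lower without overlap (2.79% of all tested genes), though edgeR called 0. The part of these markers was not tested.

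Medians by replicate number were 0.06, 0.46 and 0.09, with 20, 32 and 28 genes positive, and 17 genes were higher each time (15.1% of all tested genes) and 0 lower (12.7%). The groups overlapped for all 34, where 2.04% of tested genes were higher and 2.79% lower without overlap. Without Ox-mtDNA replicate 2 the median was 0.13 and without Ox-mtDNA replicate 3 it was 0.10, each with 24 of 34 genes positive. Both comparisons with PBS share the PBS libraries, and this one shares a group with each of them, so the 3 sets of values are not independent.

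The immunoproteasome subunits, which take the place of Psmb6, Psmb7 and Psmb5 in newly built particles, were expressed in PBS within log2 ratios of -0.69 to 0.83 of their constitutive counterparts, per kb. Psmb8 had 216, 234 and 352 CPM in the PBS libraries, 197, 260 and 231 CPM in the mtDNA libraries, and 230, 103 and 273 CPM in the Ox-mtDNA libraries. Psmb9 had 122, 151 and 137 CPM in the PBS libraries, 155, 203 and 130 CPM in the mtDNA libraries, and 150, 61.1 and 145 CPM in the Ox-mtDNA libraries. In both, Ox-mtDNA replicate 2 was the lowest of the 9 libraries and the other libraries of the groups overlapped. Psmb10 had 80.6, 107 and 134 CPM in the PBS libraries, 71.7, 108 and 46.5 CPM in the mtDNA libraries, and 65.0, 35.4 and 63.6 CPM in the Ox-mtDNA libraries. Each Ox-mtDNA library was below each PBS library, and mtDNA overlapped with both.

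The log2 fold change of Psmb10 in Ox-mtDNA against PBS was -0.97 (SE 0.396), with an unadjusted p of 0.0393 and an adjusted p of 0.486 by the edgeR quasi-likelihood test, so it was not called. Those of Psmb8 and Psmb9 were -0.40 (SE 0.384) and -0.21 (SE 0.366). In mtDNA against PBS the values were -0.22 for Psmb8, 0.25 for Psmb9 and -0.50 for Psmb10, and in Ox-mtDNA against mtDNA they were -0.18, -0.46 and -0.46. Psme2, a subunit of the interferon-inducible PA28 activator, was at -0.57 (SE 0.315) in Ox-mtDNA against PBS and its partner Psme1 at 0.01. Over these 5 genes the median was -0.40, with -1.18 in replicate 2 against 0.09 and -0.36 in replicates 1 and 3. Without Ox-mtDNA replicate 2 it was -0.10. That library had its constitutive genes high (30 of 34 above PBS replicate 2) and all 5 of these genes low, beside its low pDC marker sum, whose part was not tested.

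Ratios of immunoproteasome to constitutive subunit at each catalytic site were compared within a library, per kb. The ratio of Psmb10 to Psmb7 was -0.38, 0.08 and -0.37 (log2) in the PBS libraries, -0.36, 0.17 and -1.71 in the mtDNA libraries, and -0.74, -1.77 and -1.36 in the Ox-mtDNA libraries. All Ox-mtDNA libraries lay below all PBS libraries, with a difference of means of -1.07. The two-sided exact permutation p was 0.1, the smallest that 3 libraries against 3 allow, and 0.675 after Benjamini-Hochberg adjustment over the 9 comparisons of 3 ratios. The ratio of Psmb8 to Psmb5 was 0.56, 0.83 and 0.81 in the PBS libraries, 0.67, 1.02 and 1.03 in the mtDNA libraries, and 0.98, -0.56 and 1.05 in the Ox-mtDNA libraries. The ratio of Psmb9 to Psmb6 was -0.35, 0.15 and -0.69 in the PBS libraries, 0.26, 0.48 and -0.68 in the mtDNA libraries, and 0.07, -1.94 and -0.58 in the Ox-mtDNA libraries. In these 2 ratios the treated libraries spanned or overlapped the PBS values, Ox-mtDNA replicate 2 was the lowest, and the exact permutation p for Ox-mtDNA against PBS was 1.0 and 0.6. Exons of Psmb7 overlap those of Nek6 over 405 of 1160 bases, exons of Psmb9 those of Tap1, and exons of Psmb8 those of Gm20496. The counts behind all 3 ratios are therefore uncertain.

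**Figure D4:**
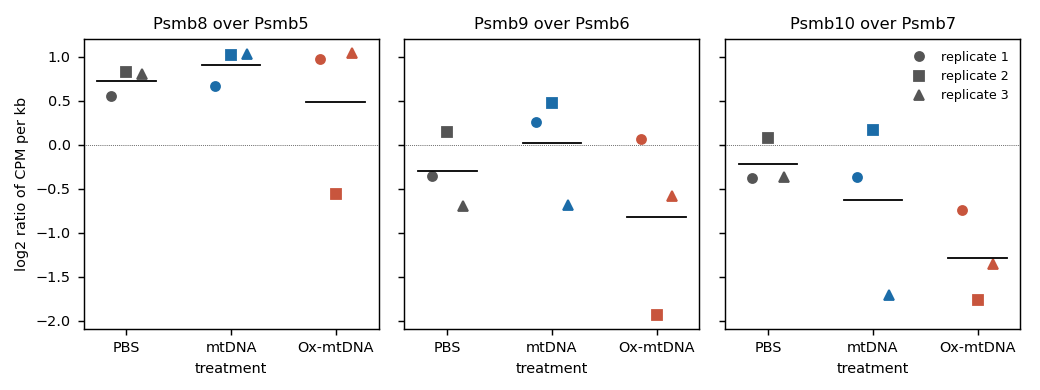
Log2 ratio of CPM per kb (y axis) of the immunoproteasome subunit to the constitutive subunit of the same catalytic site, by treatment (x axis); each symbol is a library, its shape the replicate number, and horizontal bars are group means. In the right panel the Ox-mtDNA libraries (-0.74, -1.77 and -1.36) are all below the PBS libraries, and in all 3 panels Ox-mtDNA replicate 2 (square) is the lowest symbol.

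The other genes of the pathway were read from a list of 56 symbols, of which 55 were matched and 53 tested. The 2 matched genes that were not tested are the testis alpha subunit Psma8 and the thymus beta subunit Psmb11, which were at no more than 0.722 and 0.107 CPM in any library. In Ox-mtDNA against PBS 0 of the 53 were called by the edgeR quasi-likelihood test. By that test 13 were higher at an unadjusted p under 0.05 (5.88% of all tested genes) and 1 (Psmb10) lower (3.93%). DESeq2 called 9 of the 53, all higher, and 8 of them are stress genes given below.

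Among genes that build or accompany the particle, log2 fold changes in Ox-mtDNA against PBS lay between -0.61 and 0.60. SEs reached 1.48 among the assembly and import factors and 0.680 among the other subunits and partners, so some values were imprecise. Of 6 factors of 20S assembly and import 4 were negative, with a median of -0.28. Of the chaperones, Psmg3 was at -0.50 (SE 0.294) and Psmg1 at 0.53 (SE 0.438). Of 7 other 26S subunits and partners 6 were positive, with a median of 0.27, including the proteasome-bound thioredoxin Txnl1 (0.60, SE 0.332), and the exception was the ubiquitin ligase Ube3c (-0.61, SE 0.372). Of 3 further regulators the inhibitor Psmf1 was at 0.18 (SE 0.266) and the activator Psme4 at -0.17 (SE 0.325). None of these 16 genes had an unadjusted p under 0.05.

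Genes that bring substrates to the proteasome had mostly positive values. Of 8 delivery factors 7 were positive, with a median of 0.29, where 53.8% of all tested genes were positive. Their SEs had a median of 0.554 and reached 1.43, so the sign of several values is uncertain. The shuttle protein Ubqln1 was highest (1.07, SE 0.624), and Ufd1, a cofactor of the unfoldase Vcp, was at 0.26 (SE 0.313). All 5 genes of ubiquitin and its activating enzyme were positive, with a median of 0.51. Ubb, which encodes a chain of ubiquitin units, had 740, 610 and 926 CPM in the PBS libraries, 700, 710 and 1474 CPM in the mtDNA libraries, and 1619, 2287 and 1570 CPM in the Ox-mtDNA libraries. Each Ox-mtDNA library was above each PBS library and each mtDNA library. The log2 fold change against PBS was 1.27 (SE 0.368), with an unadjusted p of 0.00828 and an adjusted p of 0.472 by the edgeR quasi-likelihood test, so it was not called.

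The regulators of proteasome transcription differed among themselves. Nfe2l2 had 96.9, 114 and 141 CPM in the PBS libraries, 88.8, 109 and 245 CPM in the mtDNA libraries, and 106, 333 and 205 CPM in the Ox-mtDNA libraries, with a log2 fold change of 0.87 (SE 0.508) in Ox-mtDNA against PBS. Nfe2l1, the factor that restores proteasome genes when the proteasome is inhibited, had 159, 144 and 12.4 CPM in the PBS libraries, 147, 155 and 17.9 CPM in the mtDNA libraries, and 85.7, 234 and 16.3 CPM in the Ox-mtDNA libraries. Its replicate 3 was far below the others in each group, so its fold change of 0.08 had an SE of 1.18. Nfe2l1 was named for that pattern after its values were seen. Ddi2, the protease that activates Nfe2l1, was at 0.25 (SE 0.303).

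The widest differences in the pathway were in 14 genes of the proteotoxic stress response, chaperones and adaptors that handle misfolded proteins. All 14 had positive values in Ox-mtDNA against PBS, with a median log2 fold change of 2.34, and the pDC markers described above had a median of -0.68 in the same comparison, whose part was not tested. By the edgeR quasi-likelihood test 11 were higher at an unadjusted p under 0.05 (5.88% of all tested genes) and 0 were called. DESeq2 called 8 (Dnajb1, Hsp90aa1, Hspa1a, Hspa1b, Hspb1, Hspd1, Hsph1 and Zfand2a). Hsp90aa1, a cytosolic chaperone, had 455, 438 and 645 CPM in the PBS libraries, 499, 706 and 2313 CPM in the mtDNA libraries, and 7374, 6307 and 2088 CPM in the Ox-mtDNA libraries. Its log2 fold change was 3.36 (SE 0.710), and that of the small heat shock protein Hspb1, which was at 0.342 to 2.42 CPM in PBS and 12.5 to 504 CPM after Ox-mtDNA, was 7.85 (SE 1.46). For 9 of the 14 genes the groups did not overlap, all with Ox-mtDNA higher, as for 7.39% of all tested genes. With replicates 1 and 2 alone the edgeR test called 7 of the 14 and again 0 of the 34 constitutive proteasome genes. In that fit 1 of the 34 (Psmd8) was higher at an unadjusted p under 0.05 and 0 lower. Of its 17151 tested genes 8.82% were higher and 6.57% lower. The same held for Psmd8 in Ox-mtDNA against mtDNA, where 7.84% of tested genes were higher and 7.18% lower.

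The same 14 genes were positive in 13, 14 and 14 cases in replicates 1, 2 and 3, with medians of 2.17, 3.40 and 1.49. The exception was the autophagy receptor Sqstm1 in replicate 1 (-0.98). Beside these values the 34 constitutive genes had medians of -0.12, 0.48 and -0.15. In mtDNA against PBS the stress genes had a median of 0.50, with 14 of 14 positive. By replicate number the medians there were 0.17, 0.44 and 1.25, with 10, 12 and 14 genes positive, so replicate 3 was highest. By the edgeR quasi-likelihood test 1 was higher at an unadjusted p under 0.05 (2.02% of all tested genes). In Ox-mtDNA against mtDNA their median was 1.98, with 9 higher at an unadjusted p under 0.05 by that test (0.923% of all tested genes). By replicate number the median of Ox-mtDNA against mtDNA was 2.42 and 2.89 in replicates 1 and 2 but 0.01 in replicate 3. In these 2 comparisons edgeR and DESeq2 called 0 of the 14.

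**Figure D5:**
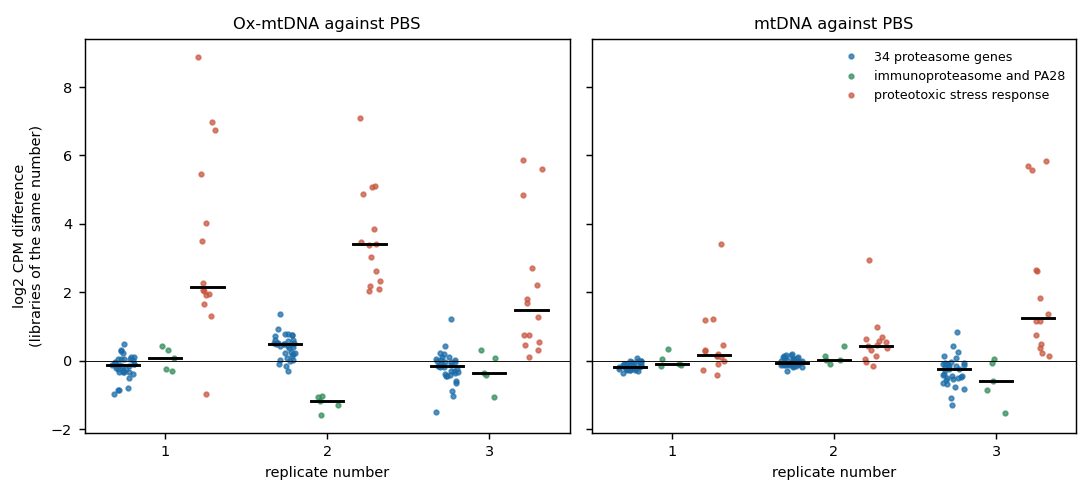
Difference in log2 CPM between libraries of the same replicate number (y axis) for each gene (points, spread sideways for display) and the median of each list (black bars), in Ox-mtDNA against PBS (left) and mtDNA against PBS (right). Stress genes (red) have medians of 2.17, 3.40 and 1.49 on the left, the 34 constitutive proteasome genes (blue) are at -0.12, 0.48 and -0.15, and immunoproteasome and PA28 genes (green) are lowest in replicate 2 at -1.18.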

How the data were processed

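RNA was measured in 9 libraries of sorted mouse pDCs, assigned to 3 groups from their titles. Per the submitters' processing notes, reads were handled with fastp 0.23.4, STAR 2.7.11b, featureCounts 2.0.1 and GRCm39. The authors deposited raw counts per gene, and per the file headers paired fragments were counted over exons of GENCODE genes, without strand, with a fragment over several genes counted for each. The deposited exon length per gene was used for values per kb.

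Genes passing filterByExpr at a minimum count of 10 (edgeR 4.0.16, R 4.3.3) numbered 17555, and libraries were scaled with TMM. All 9 libraries entered 1 robust quasi-likelihood model of the group means, and p-values were adjusted by Benjamini-Hochberg over all tested genes at 0.05. Log2 CPM differences used a prior count of 2. The code was tested on simulated data. Members and lists were chosen with earlier results of these data known. Values in every library are given for the 2 members with the highest and the 2 with the lowest fold change in each comparison with PBS, for Psmb5, Psmb6 and Psmb7, and for any member past the threshold. From each pathway list up to 2 genes with the smallest unadjusted p in Ox-mtDNA against PBS are named, and Psmb8, Psmb9 and Psmb10 always. The replicate numbers come from the titles. Deviations from group means of same-numbered libraries correlated at 0.487 to 0.897, all over 0.1. The numbers were therefore taken to pair the libraries for the replicate differences, but not in the main model. Libraries numbered 1 and 2 also correlated with each other across groups (0.524 to 0.708), while both were negative with number 3 (-0.871 to -0.556), so the check mainly separates number 3. A fit with the replicate number as a block was run. Other alternatives were other scalings, DESeq2 1.42.0, limma-voom (limma 3.58.1), other filters, fewer libraries and leaving out each library. Between replicates the chi-square per degree of freedom was 15.4 to 347, where counting error alone would give about 1. Symbols and GC content came from reference tables. Protein sequences were not used here. A pathway gene that the naming rule selected is not reported here.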

Additional observations from a re-analysis of the deposited data

How the results depend on the processing

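The number of constitutive proteasome genes called was 0 in all 3 comparisons under each of the 18 alternatives run. For genes called over the whole table the count in Ox-mtDNA against PBS, 0 in the edgeR quasi-likelihood fit (1722 at an unadjusted p under 0.05), became 328 with the Wald test of DESeq2 (251 higher), 25 with replicates 1 and 2 only (all higher) and 1 with the replicate block (Kctd19), and in mtDNA against PBS, 0 (460), it became 10 with DESeq2. In Ox-mtDNA against mtDNA it was 0 (422) throughout. The replicate block left the medians of the 34 genes at 0.06, -0.16 and 0.21 and changed no other call. Leaving out 1 library at a time gave medians of -0.11 to 0.24 in Ox-mtDNA against PBS, -0.39 to 0.01 in mtDNA against PBS and 0.10 to 0.39 in Ox-mtDNA against mtDNA, and no filter on low counts gave -0.04 in the first. The median of mtDNA against PBS was 0.01 without PBS replicate 3, and in the 3 other such fits in which it moved by more than the spread between replicates it stayed negative; the cause was not tested. Without Ox-mtDNA replicate 2 Psmd7 was at -1.05 and Psmc1 at -0.84 in Ox-mtDNA against PBS. The direction of single genes turned in leave-out fits for Psmb7 in Ox-mtDNA against PBS (-0.21 to 0.33), for Psma6 (-0.28 to 0.48), Psmb6 (-0.39 to 0.13), Psmb7 (-0.49 to 0.13) and Psmd14 (-0.24 to 0.33) in mtDNA against PBS, and for Psma6, Psmb7, Psmc1 and Psmd7 in Ox-mtDNA against mtDNA. DESeq2 was run on all 37369 genes with a count, and the median of all genes was then 0.21 in Ox-mtDNA against PBS, against 0.06 over the 17555 genes of the edgeR fit. The SE of the proteasome genes had a median of 0.313 in Ox-mtDNA against PBS, which limits the size of a difference that could be called.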
